A study of Drosophila melanogaster with 4 samples.

Results

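Long stretches of the fly genome held no region enriched for histone H3 trimethylated at lysine 79 (H3K79me3). Such a stretch, called a long gap here, is at least 100 kb without a region of either ChIP (chromatin immunoprecipitation) replicate, between neighbouring regions or up to an arm end. The regions of both replicates were joined where they overlapped or touched, on the 5 large arms 2L, 2R, 3L, 3R and X. The joined lists left 4821 gaps of any length, of which 207 were long gaps, or 4.29%. They were selected on the called positions of the regions in both replicates, so their number, length and place are descriptions, and no test was made of them.

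The material was larvae of Drosophila melanogaster at the last larval instar, of the wild-type strain Oregon-R-modENCODE, with no treatment named. The series has 2 ChIP replicates made with a rabbit polyclonal antibody against H3K79me3, and 2 input samples, which were not analysed here. Both groups share strain and stage, and separate collections of larvae are not named for the replicates, whose spread may thus be technical. Larvae hold many cell types, so a mark present in few cells and a mark that is absent cannot be told apart in these lists. Region lists carry no read counts, and the depth of each library is unknown. Positions are on FlyBase release 5, 1-based.

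As background, H3K79 is methylated by Dot1, called grappa in flies, and the mark usually lies over the bodies of active genes. Sequence without it is therefore usually sequence with little transcription. In flies this includes pericentromeric heterochromatin, which is rich in repeats, and long silent domains within the arms. Known classes of such domains are those held by Polycomb proteins, those at the nuclear lamina, and clusters of genes used in few tissues. No genes were placed in the gaps here, because no annotation of release 5 was used.

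The long gaps held a large part of the sequence without a called region. They added up to 34.6 Mb, which was 29.1% of the 119.03 Mb in the large arms and 39.2% of the 88.5 Mb that no region covered. The median gap of any length was 3920 bp, while the median long gap was 146 kb, with quartiles of 123 and 186 kb. Between 100 and 150 kb lay 109 long gaps, and 51 lay between 150 and 200 kb. Another 36 measured 200 to 300 kb, and 11 were longer than that. The 73 longest held 50% of the total length. Of the 207, 206 were bounded by a region on both sides in the joined lists, and 1 reached an arm end, on 3L from 1 to 127869. In the list of replicate 2, the gap on 2R from 20910664 to 21140698 also reached the arm end. In that of replicate 1, the gap on 3L from 24022874 to 24530228 did so.

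**Figure D1:**
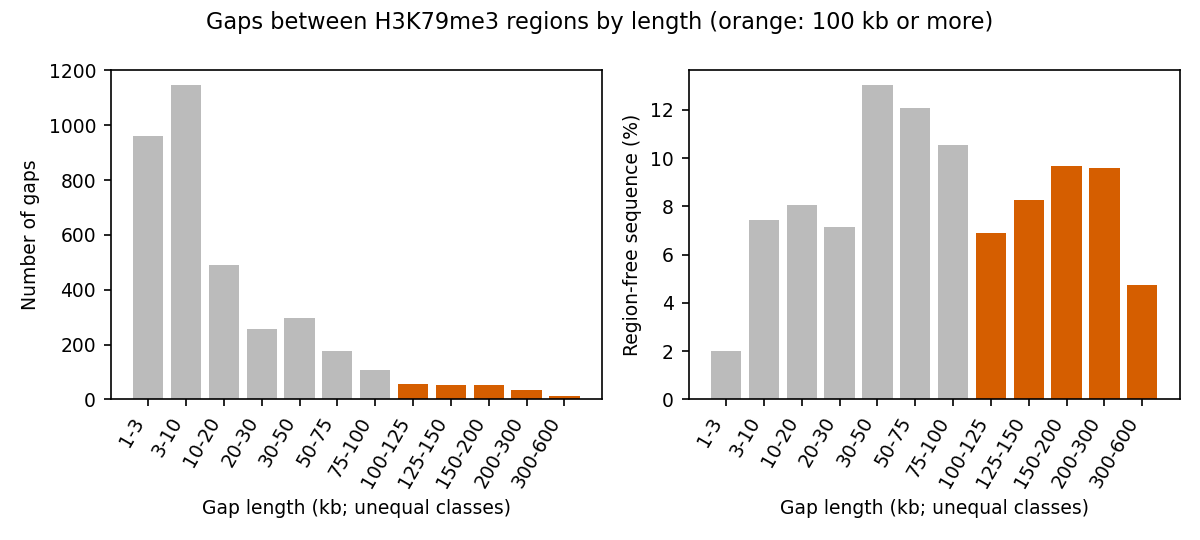
Gaps between joined H3K79me3 regions on the large arms, by length class in kb (classes are unequal, and 1182 gaps under 1 kb are not drawn). Left, number of gaps; right, share of all region-free sequence in percent. The orange classes of 100 kb and more are the 207 long gaps, few in number but 39.2% of region-free sequence.

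Gaps were about as frequent just below the minimum as just above it. The 3 shortest long gaps measured 100.347 kb on 3R from 21162453 to 21262799, 100.408 kb on 2L from 13670005 to 13770412, and 100.410 kb on 3L from 12272993 to 12373402. Just below the minimum were gaps of 99.7 kb on X from 15241268 to 15340981, 99.6 kb on 2L from 14234417 to 14333979, and 99.5 kb on 2R from 7613081 to 7712544. There were 17 gaps of 100 to 105 kb and 18 of 95 to 100 kb. In all, 285 gaps measured 50 to 100 kb.

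Each replicate alone gave nearly the same set. Replicate 1 held 206 gaps of at least 100 kb over 35.5 Mb, and replicate 2 held 218 over 36.9 Mb. The mean was 212 ± 8.49 gaps (SD, n = 2), covering 30.4 ± 0.816% of the large arms (SD, n = 2). All 207 long gaps lay inside a gap of each list, since joining can only shorten a gap. By how much it shortened them is a measure of disagreement: the gap in replicate 1 alone was longer by a median of 34 bp, and the gap in replicate 2 alone by a median of 161 bp. The gap was less than 10 kb longer in 195 of the 207 for replicate 1 and in 183 for replicate 2. It was at least 50 kb longer in 10 and 7, where a region called in only 1 replicate divided a gap of the other. Replicate 1 alone had 2 gaps of at least 100 kb that held no joined long gap, and replicate 2 had 13.

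The edges were placed closely by both replicates. The 207 long gaps had 413 edges, and at 346 of them both replicates had called the flanking region. There the region ended within a median of 86 bp of the same base in both lists, with an upper quartile of 201 bp and a maximum of 1.99 kb. The difference was under 500 bp at 310 of the 346 edges.

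The 10 longest gaps lay on 3L (4), X (3), 2L (2) and 3R (1). The longest ran on 3L from 24022874 to 24530228, with 507 kb in the joined lists and in replicate 2. In replicate 1 it was part of a single gap of 1209.78 kb that reached the arm end. Another pair among the 10 longest also lay within 1 Mb of the centromere-proximal end. One ran on 3L from 23333983 to 23707954, with 374 kb joined and in replicate 2, and belonged to the same 1209.78 kb in replicate 1. The other ran on X from 21501773 to 21845839, with 344.1 kb in the joined lists and in replicate 1 and 344.2 kb in replicate 2.

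The other 7 lay more than 1 Mb from the centromere-proximal end. The longest of these ran on 2L from 16910934 to 17373486, with 463 kb joined and in replicate 1 and 465 kb in replicate 2. On 3L, the gap from 18179137 to 18612091 measured 433.0 kb in replicate 1 and 433.1 kb in replicate 2. Also on 3L, the gap from 13508778 to 13901895 measured 393.2 and 393.4 kb. These gaps differed between replicates by a small part of their length. On X, the gap from 20532618 to 20900863 measured 368.3 kb in replicate 1 and 368.4 kb in replicate 2, and the gap from 14143447 to 14474116 measured 330.8 and 331.1 kb. On 2L, the gap from 15911428 to 16248920 measured 337.8 kb in replicate 1 and 337.5 kb in replicate 2. On 3R, the gap from 23812153 to 24146468 measured 334.7 kb in replicate 1 and 355.7 kb in replicate 2, where a region called only in replicate 1 set its lower edge. Of the 10 longest, 6 were within 1 kb of the joined length in both lists. The longest on 2R ranked lower, with 260 kb from 718088 to 977759.

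The X had the highest share of its length in long gaps and 2R the lowest. The share was 33.7% for X, 32.2% for 2L, 29.0% for 3L, 28.3% for 3R and 22.2% for 2R. In the replicates taken alone it was 35.0 ± 0.475% for X, 34.0 ± 0.647% for 2L, 30.2 ± 1.15% for 3L, 29.3 ± 1.32% for 3R and 23.3 ± 0.301% for 2R (mean ± SD, n = 2 each). The order was the same in both replicates. The means of 3L and 3R differed by less than the SD of either, but that SD is not the spread of their difference within a list. Within each list 3L was slightly above 3R, at 29.4 against 28.4% in replicate 1 and 31.0 against 30.2% in replicate 2. The lowest arm in both was 2R, at 23.1 and 23.5%. With gaps of at least 150 kb in place of 100 kb the order began with 3L, 2L and X, and with gaps of at least 50 kb 2L came before X. At 100 kb, 2L also came before X in the top 50% of each list by score, and 3R came before 3L in the series-wide list. The first place of X thus depended on the setting, while 2R was last in each of these cases. No test across libraries was made with 2 replicates.

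The arms differed in the number of long gaps more than in their typical length. X held 45 long gaps, or 2.01 per Mb, 2L 44 (1.91 per Mb), 3R 50 (1.79 per Mb), 3L 38 (1.55 per Mb) and 2R 30 (1.42 per Mb). The median length was between 142 kb on 2R and 149 kb on 2L. It was 146 kb on X and 147 kb over the autosomal arms. Gaps of at least 200 kb numbered 47 in all, with 13 on X, 10 on 3L, 9 on 3R, 8 on 2R and 7 on 2L. Long gaps held 44.8% of the region-free sequence of X and 31.0% of that of 2R.

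**Figure D2:**
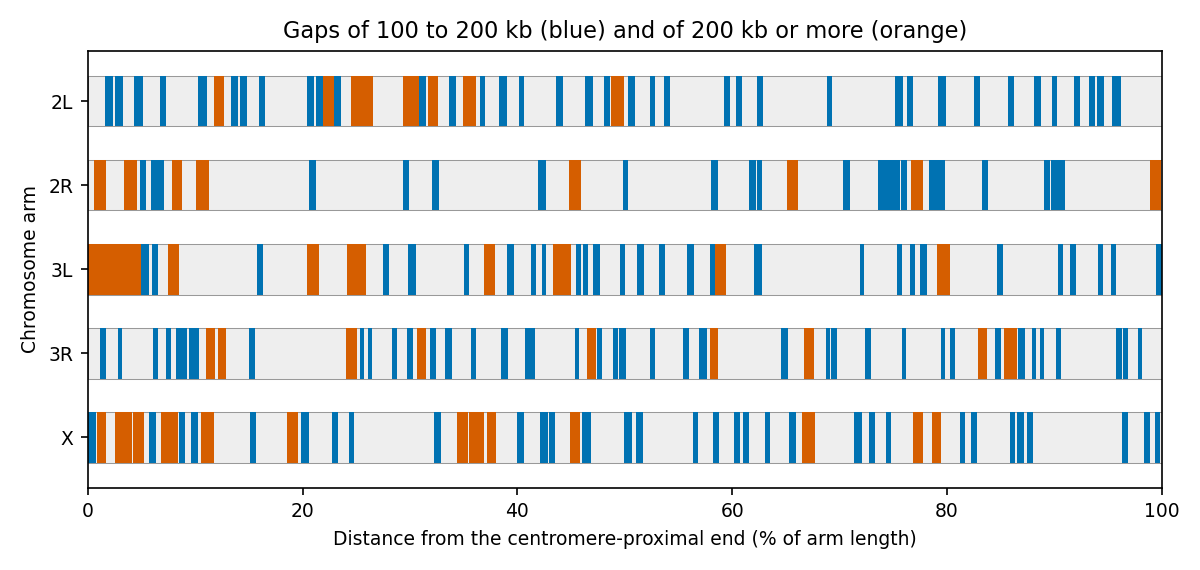
Place of the 207 long gaps on the large arms, drawn to scale as percent of arm length from the centromere-proximal end (left) to the telomeric end (right). Orange marks the 47 gaps of at least 200 kb and blue the shorter ones; the left end of 3L is almost filled, while 2R has the fewest gaps.

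Over the 5 large arms together, long gaps took up more of the centromere-proximal 2 Mb than of the rest. In the proximal 2 Mb of each arm, 53.1% lay in long gaps, against 26.9% elsewhere. The values were 57.4 against 27.3% in replicate 1 and 53.2 against 28.9% in replicate 2. This did not hold for each arm. The proximal 2 Mb of 3L were in long gaps to 84.5%, those of X to 76.8% and those of 2R to 51.7%, against 24.0, 29.4 and 19.1% in the rest of these arms. On 2L the proximal share was 32.4%, close to the 32.2% of the rest, and on 3R it was 20.1%, below the 28.9% of the rest. The replicates differed on 2L, with 43.7% in replicate 1 and 32.4% in replicate 2, and on 2R, with 60.8 and 51.7%. Without 3L and X the proximal share was 34.7%, against 27.1% elsewhere.

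Beyond the proximal bin the share varied without a steady rise or fall. From 2 to 20 Mb from the centromere-proximal end, bins of 2 Mb had between 22.6 and 33.6% of their sequence in long gaps. The lowest bin of all was that from 20 to 22 Mb, with 16.0%, and bins further out, which fewer arms reach, had 20.6 to 32.1%. The bin from 2 to 4 Mb already had 29.3%. Mappability of the proximal sequence cannot be read from region lists, and its part in the result was not tested.

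**Figure D3:**
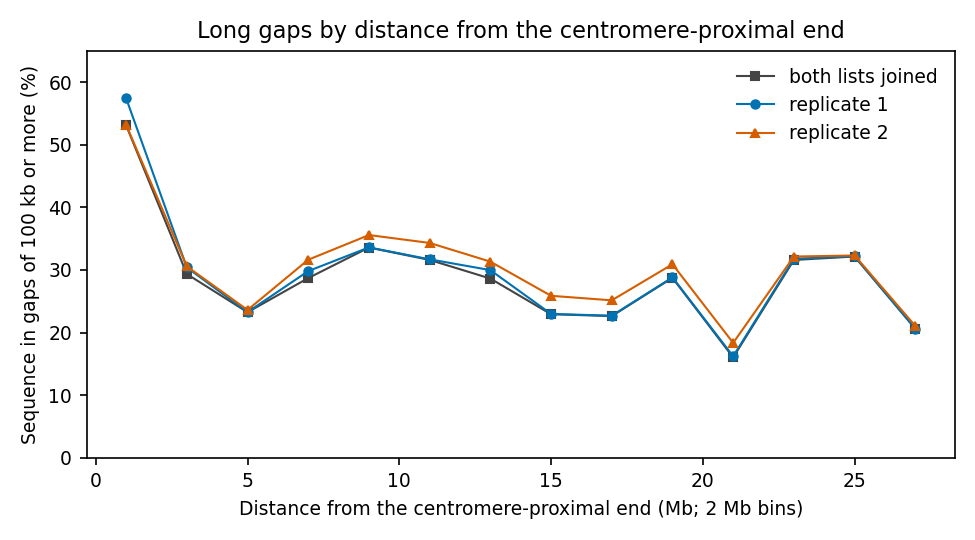
Share of sequence in gaps of at least 100 kb (percent) by distance from the centromere-proximal end in 2 Mb bins, over all large arms that reach that far. The first bin stands at 53.1% for the joined lists, 57.4% for replicate 1 and 53.2% for replicate 2, and the bins from 2 to 20 Mb at 22.6 to 33.6% for the joined lists, and the lowest is that from 20 to 22 Mb at 16.0%.

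At the scale of 1 Mb, most blocks of the arms held a long gap. The 3 arm-end blocks shorter than 0.5 Mb were left out, and of these the last 0.147 Mb of 2R had 95.9% and the last 0.423 Mb of X had 85.1% in long gaps. Of the 119 blocks kept, 12 had no sequence in one, and the median block had 26.1%. More than 50% lay in long gaps in 18 blocks. Of the blocks kept, the fullest were the last 2 of 3L, from 24000001 to 24543557 with 97.3% and from 23000001 to 24000000 with 93.6%. They were followed by 2L from 17000001 to 18000000 with 77.9%, and by X from 21000001 to 22000000 with 70.2%. Stretches with no long gap were at most 2.38 Mb long, on 3R from 4343316 to 6719888. The longest on 3L ran from 6905258 to 9130700 (2.23 Mb), on 2R from 2389126 to 4352638 (1.96 Mb), on X from 819586 to 2684346 (1.86 Mb) and on 2L from 7181547 to 8538460 (1.36 Mb). These blocks and stretches were picked after their values were seen.

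Some long gaps stood side by side. Along the arms there were 202 pairs of consecutive long gaps, with a median of 13 joined regions and 242 kb between them. In 18 pairs a single joined region divided them, and in 33 pairs at most 3 did. The 18 pairs involved 33 long gaps, 15.9% of the 207, counting a neighbour on either side. This share was not taken for gaps of any length. Both replicates called 13 of the 18 dividing regions. Of the long gaps, 8.70% were followed directly by another long gap, while 4.29% of gaps of any length were long. For the gap after that the share was 4.90%, and for the third gap further along it was 4.93%. It was 6.97% for the fifth, 6.09% for the tenth and 6.70% for the twentieth, so it also exceeded 4.29% at a distance. In place of 15.9%, the share with a neighbour across 1 region was 10.7% in replicate 1 alone and 13.3% in replicate 2 alone.

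Gaps separated by at most 3 regions formed 24 chains with 57 members, of which 20 were pairs, 3 had 4 gaps and 1 had 5. No matching count was made for gaps of any length, so these numbers do not show that long gaps cluster at this distance. The gap directly after a long gap was long in 8.70% of cases. At 2 and 3 gaps further along the share was 4.90 and 4.93%, close to the 4.29% of gaps of any length. The chain of 5 lay on 3L from 22940464 to 24530228, at the centromere-proximal end. It spanned 1590 kb, of which 95.9% was in long gaps, with 7 regions between them. The chains of 4 were on 2L from 17591348 to 18319391 (728 kb, 95.7% in long gaps), on 3R from 2296757 to 2890397 (594 kb, 87.5%) and on 2R from 15559770 to 16130387 (571 kb, 97.1%). Of these 4 chains, the one on 3L reached into the proximal 1 Mb of its arm and the others did not. The longest pair was on X from 14143447 to 14723068, where 580 kb held a single region of 2033 bp. Chains were described after their values were seen.

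The chain on 3L held the long gaps whose length differed most between the replicates. Replicate 1 had no region from 23333781 to the end of the arm, a span of 1209.78 kb. Replicate 2 had 3 regions there. These were 23707955 to 23709973 with a score of 0.421, 24021528 to 24022873 with a score of 0.372, and 24530229 to 24532054 with a score of 0.379. The score is the authors' own value for each region, deposited with no unit, and it is compared here within a list, except that named flanks are ranked by its mean over both lists. In replicate 2 these scores ranked at the 8.08, 4.89 and 5.24 percentile of large-arm regions. Because of these low-scoring regions of 1 replicate, the joined lists cut the stretch into 3 long gaps. In the series-wide list, which the authors made from the same libraries, the longest gap of this stretch was 820 kb. The chains on 2L and 2R also had low-scoring dividing regions of 1 replicate. On 2L, 17742823 to 17744246 was called only in replicate 1, at the 6.92 percentile. Only replicate 2 called 17963353 to 17964687, at the 8.31 percentile. Replicate 1 alone thus had a gap of 386 kb there, and replicate 2 alone one of 372 kb. On 2R, 15868637 to 15870213 was called only in replicate 1, at the 6.90 percentile, and replicate 2 had a gap of 278 kb.

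The 18 regions that stood alone between 2 long gaps ranged from low to very high scores. Both replicates called 13 of them, replicate 1 alone called 2 and replicate 2 alone called 3. Their median width was 3864 bp and the widest was 23739 bp. Where a replicate had several entries in such a region, which was so for 5 in replicate 1 and 1 in replicate 2, the highest score was taken. The median score was 0.912 over the 15 called in replicate 1 and 0.915 over the 16 called in replicate 2, and 7 and 8 of these were above the median of single entries in their list. The highest was on 2R from 15998407 to 16004662, with 2.62 in replicate 1 and 2.19 in replicate 2, at the 99.9 and 99.7 percentile. It stood between gaps of 128 and 126 kb. Between gaps of 155 and 131 kb, 3R held a region at 26877774 to 26887441 with scores of 2.44 and 2.01. Between gaps of 331 and 247 kb, X held the region at 14474117 to 14476149, with scores of 0.606 and 0.434.

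Regions at the edge of long gaps resembled other regions in score. In each replicate list, the entry nearest to each gap edge was taken, which gave 394 different entries in replicate 1 and 393 in replicate 2. Their median score was 0.970 in replicate 1, against 0.947 for the other 4654 entries of the large arms. In replicate 2 it was 0.871, against 0.886 for the other 4220. The difference was 0.0232 in replicate 1 and -0.0155 in replicate 2, a mean of 0.00386 ± 0.0273 (SD, n = 2), which is smaller than its spread and has no common direction. The quartiles of the flanking entries were 0.597 and 1.43 in replicate 1, and those of the others 0.603 and 1.46. The flanks of gaps of 20 to 100 kb had a median score of 0.936 in replicate 1 and 0.859 in replicate 2. The nearest entry was not always at the edge: it lay in the flanking joined region at 388 of 410 edges in replicate 1. In replicate 2 this was so at 371 of 412 edges. A comparison of these entries alone was added after the data were seen. Their median score was 0.976 against 0.945 in replicate 1 and 0.894 against 0.884 in replicate 2, slightly higher in both lists.

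The flanking entries were slightly narrower than the others in both lists. Their median width was 3397 bp against 3684 bp in replicate 1, and 3448 bp against 3870 bp in replicate 2. The difference was -287 bp and -421.5 bp, a mean of -354 ± 95.1 bp (SD, n = 2). The flanks of gaps of 20 to 100 kb had medians of 3472 and 3596 bp, which also lay below those of the other entries. Within width classes the score differences had no single direction. For entries under 3 kb the median was 0.564 at flanks and 0.575 elsewhere in replicate 1, and 0.561 and 0.541 in replicate 2. From 3 to 6 kb it was 1.11 and 1.08 in replicate 1, and 0.927 and 0.982 in replicate 2. From 6 to 12 kb flanks were higher in both lists, at 1.45 against 1.41 and 1.35 against 1.25. At 12 kb or more they were lower in both lists, at 1.53 against 1.63 and 1.35 against 1.48. These scores and widths come from the lists that defined the gaps, and no test of them was made.

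**Figure D4:**
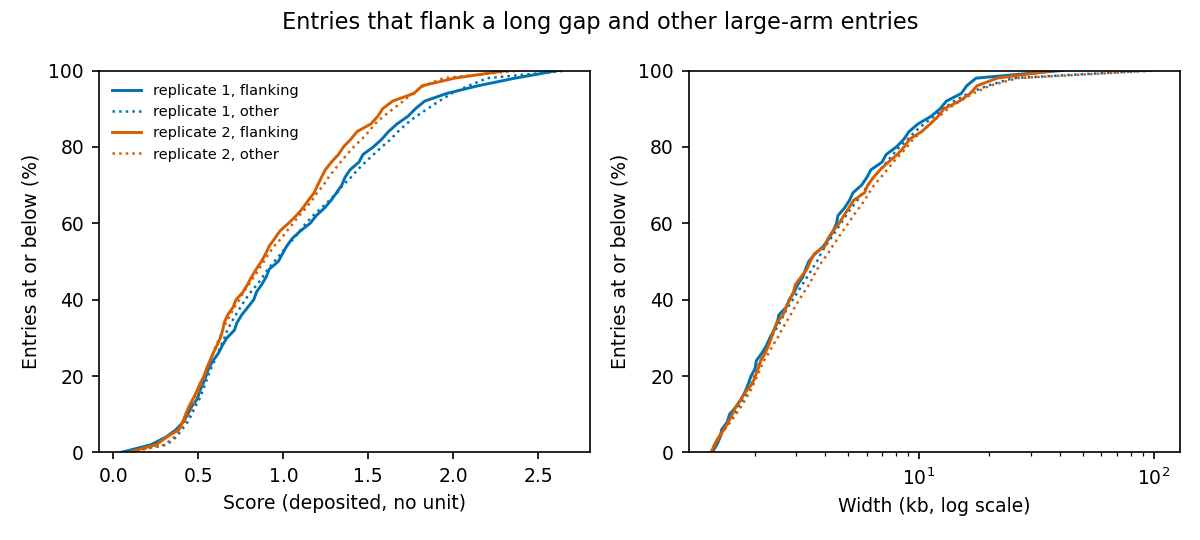
Cumulative distributions of score (left, no unit) and width (right, kb, log scale) of entries nearest to an edge of a long gap (solid) and of all other large-arm entries (dotted), in each replicate list. The curves nearly coincide in score, with medians of 0.970 and 0.947 in replicate 1 and of 0.871 and 0.886 in replicate 2, and the flanking entries lie slightly to the left in width.

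Regions of at least 20 kb made up a smaller share at gap edges than in the lists as a whole, while low scores made up about the same share. Of the flanking entries, 29 in replicate 1 (7.36%) and 32 in replicate 2 (8.14%) were in the top 10% of large-arm entries by score. The upper tail had no single direction. The score below which 98% of entries lay was higher at flanks, at 2.36 against 2.20 in replicate 1 and 2.01 against 1.94 in replicate 2. The score below which 90% lay was lower at flanks, at 1.78 against 1.85 and 1.58 against 1.65. The maximum was also lower at flanks, at 2.62 against 2.67 and 2.32 against 2.40. In the lowest 25% by score were 100 entries in replicate 1 (25.4%, against 25% of all entries) and 99 in replicate 2 (25.2%, against 25.1% of all entries). Among the 395 joined regions at gap edges, 10 were at least 20 kb wide (2.53%), against 4.34% of all 4817 joined regions. This is a small count, and the share was not taken at gaps of 20 to 100 kb. The width below which 90% of flanking entries lay was close for both kinds of gap. It was 12338 bp at long gaps and 12410 bp at the shorter ones in replicate 1, and 12809 and 12689 bp in replicate 2. Under 2 kb wide were 83 (21.0%), against 18.9% of all. Called in 1 replicate only were 62 (15.7%), against 15.2% of all, so flanking regions were found in both replicates about as often as any others. These were 40 called only in replicate 1 (10.1%, against 11% of all) and 22 called only in replicate 2 (5.57%, against 4.15% of all).

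By the mean of its scores in both lists, the highest flanking entry called in both replicates was on 2R from 16880677 to 16894406, at the upper edge of a gap of 157 kb. It scored 2.56 in replicate 1 and 2.32 in replicate 2, at the 99.8 and 99.9 percentile. The next by mean score was the lone region on 2R from 15998407 to 16004662 already described, which had the highest score of any flank in replicate 1. The third was on 2L from 5316599 to 5329001, with scores of 2.56 and 2.23, at the lower edge of a gap of 134 kb. Beside a gap of 224 kb, 2R had a region at 9707008 to 9713469 with scores of 2.51 and 2.15. Beside a gap of 255 kb, 3L had one at 15227960 to 15236580 with scores of 2.46 and 2.05. All of these 5 ranked between the 99.0 and 99.9 percentile in both lists, which follows from picking them by score. Of all flanking entries, 7.36% in replicate 1 and 8.14% in replicate 2 were in the top 10% by score, against 10% of all large-arm entries.

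The widest flanking entry called in both replicates was on 3L from 13221270 to 13261955, 40.7 kb wide in replicate 1 and 38.0 kb in replicate 2, with scores of 1.37 and 1.22. It followed a gap of 109.5 kb. On 2R, the region from 20879157 to 20910663 was 31.3 kb wide in replicate 1 and 31.5 kb in replicate 2, and a gap of 230.0 kb began at its upper edge. On 2L, the region from 1884379 to 1909773 was 25.3 and 25.4 kb wide. Also on 2L, the region from 4030525 to 4063958 began with an entry of 15.9 kb in replicate 1 and one of 31.5 kb in replicate 2. On 3R, the region from 24146469 to 24170207, 23.4 and 23.6 kb wide, stood alone between gaps of 334 and 187 kb, of which the first is among the 10 longest. These 5 ranked by score between the 66.7 and 89.2 percentile in both lists.

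Gap length hardly varied with the score of the bounding regions. Across gap edges, gap length and the score of the nearest entry had a Spearman's rho of 0.0445 in replicate 1 (410 edges) and 0.0114 in replicate 2 (412 edges). For width, rho was 0.0365 and 0.0246. The scores at opposite sides of a gap hardly varied together either, with rho of 0.00422 over 203 gaps in replicate 1 and 0.0543 over 205 gaps in replicate 2. These values describe edges along 1 genome, which share their libraries and are not independent. At the 10 longest gaps, 15 of 20 edges were at regions called in both replicates, 2 at regions called in replicate 1 only and 3 in replicate 2 only. Over all long gaps, 346 of 413 edges were at regions called in both, and 20 edges are too few to compare closely.

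Outside the long gaps, coverage by regions fell with distance up to 75 kb. In the first 5 kb outside an edge, 71.2% of the sequence was covered in replicate 1 and 67.6% in replicate 2, which the choice of edges fixes. At 10 to 20 kb it was 37.5 and 36.5%, and at 30 to 50 kb 29.7 and 28.6%. At 50 to 75 kb it was 23.5 and 22.7%, close to the 24.6 and 23.8% of the large arms, a share that includes the long gaps themselves. Around gaps of 20 to 100 kb it was similar up to 50 kb, at 29.8 and 28.9% from 30 to 50 kb, and higher from 50 to 75 kb, at 28.1 and 27.3%. Other long gaps took up 20.9% of the sequence 50 to 75 kb from a long gap and 17.1% of that around the shorter gaps. With long gaps left out, 29.7 and 28.7% of that bin was covered around long gaps, and 33.9 and 32.9% around the shorter ones. The large arms outside long gaps were covered to 34.7% in replicate 1 and 33.6% in replicate 2.

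**Figure D5:**
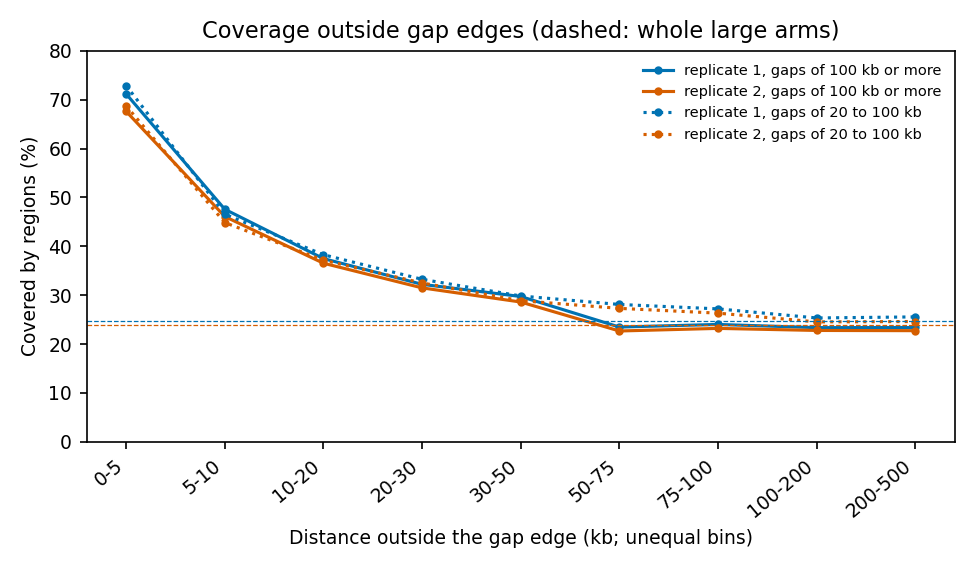
Share of sequence covered by regions (percent) by distance outside the edge of long gaps (solid) and of gaps of 20 to 100 kb (dotted), in each replicate. Dashed lines are the large arms as a whole with long gaps included, 24.6 and 23.8%. Around long gaps coverage falls from 71.2 and 67.6% in the first 5 kb to 23.5 and 22.7% at 50 to 75 kb, below the 28.1 and 27.3% around the shorter gaps.

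The series-wide list placed few regions inside long gaps. It comes from the same libraries and is no independent check, but it did not enter the choice of the gaps. Of the 207 long gaps, 167 held no series-wide region and 40 held 54 between them, at most 4 in 1 gap. This was 1.56 regions per Mb of long gap, against 11.3 per Mb of shorter gaps, which held 607. Series-wide regions covered 0.313% of the length of the long gaps. Those inside long gaps were low in score and narrow, with a median score of 0.367 and a median width of 1281 bp, against 0.725 and 3661 bp for the whole list on the large arms. Those in shorter gaps were alike, at 0.356 and 1263 bp. In 195 of the 207 long gaps a stretch of at least 100 kb stayed free in the series-wide list, and in 12 it did not.

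A single series-wide region in a long gap had a high score. It lay on X from 2965030 to 2966030, 1001 bp wide with a score of 3.08, inside the gap from 2868095 to 3028580. That gap measured 160.5 kb in the joined lists and in replicate 2, and 161.9 kb in replicate 1. The next highest score of a series-wide region inside a long gap was 0.577. The gaps with the most series-wide regions, 4 each, were on 2L from 14495111 to 14616023 and on X from 9252358 to 9371881. These were chosen after their values were seen.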

How the data were processed

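H3K79me3 ChIP-seq region lists of 2 replicates and 1 series-wide list were analysed; 2 input samples were not used. The submitters' processing notes name Bowtie 0.12.7, and the build is FlyBase release 5, per the file headers. For the region caller, its threshold and the use of input, no step is given in the sources used here. The authors deposited, for each entry, its first and last base and a score with no unit. Regions were called per replicate, and how the series-wide list combined them is not given. Entries named depleted were left out.

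Enriched entries were joined where they overlapped or touched, and gaps of at least 100000 bp were kept, with arm lengths from the file headers. A flank is the entry of a replicate list nearest to a gap edge. The centromere-proximal end is the high end of 2L, 3L and X and the low end of 2R and 3R. Named are the 10 longest gaps, the longest of each arm, the 3 shortest, the 3 just below the minimum, and the 5 highest-scoring and 5 widest flanks called in both replicates. The gaps and these rules were chosen with earlier results of these data known. No statistical test was made. The available gene table belongs to release 6, and coordinates were not converted, so no gene and no sequence is given. Depth is unknown, so no interval that needs it is given. Scripts ran under Python 3.11.15 with pandas 2.3.3, numpy 2.4.6, matplotlib 3.10.9 and scipy 1.17.1. On simulated data, joining, gaps and flanks matched per-base counting for 20 of 20 pairs of lists. Alternatives were each replicate alone, regions found in both, the series-wide list, the top 50% by score, other length minima and other definitions of flanks, neighbours and proximal sequence.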

Additional observations from a re-analysis of the deposited data

How the results depend on the processing

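The number of long gaps stayed within 1.5 times of 207 in all lists, and was 492 with a minimum of 50 kb and 98 with 150 kb. Leaving out 1 replicate gave 206 to 218 gaps, 35.5 to 36.9 Mb, median lengths of 146.9 to 147.2 kb, longest gaps of 507 to 1209.78 kb, arm ranges (highest minus lowest arm) of 11.5 to 11.8 percentage points, 10.7 to 13.3% of gaps beside another across 1 region, proximal excesses (proximal 2 Mb minus the rest) of 24.2 to 30.1 points, flank score differences of -0.0400 to 0.0232 and flank width differences of -445.5 to -292 bp. Restricting to regions found in both replicates gave 37.8 Mb, a median of 147.1 kb, a longest gap of 1209.6 kb, a score difference of -0.0394 and a width difference of -460.5 bp. The series-wide list gave 32.8 Mb, an arm range of 9.37 points, and differences of 0.0738 and -251 bp. The top 50% by score gave 53.2 Mb, a median of 158.9 kb, a longest gap of 1669 kb, an arm range of 16.3 points, 29.3% beside another, and differences of -0.0508 and -138 bp. With a minimum of 50 kb these were 54.7 Mb, 89.2 kb, 13.7 points, 25.4% and a score difference of -0.00708; with 150 kb they were 21.3 Mb, 193.8 kb, 7.54 points and 12.2%. Leaving out the gap at an arm end gave a median of 146.7 kb. Up to 3 regions between neighbours gave 27.5%, and up to 20 kb gave 21.3%. Neither share was taken for gaps of any length. The proximal excess over 4 Mb was 14.6 points, against 26.2 over 2 Mb. Taking the best entry within 20 kb gave differences of 0.385 and 2811 bp; this picks the highest of several entries. The sign of the score difference therefore depended on the setting, and its cause was not tested. With nearest entries only in the flanking joined region, an alternative added after the data were seen, the differences were 0.0202 and -298 bp. No paired analysis was possible because the region lists belong to the ChIP group alone, so that there is no second group to pair with. Depth limits could not be given, since region lists hold no counts.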

Other observations

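Chromosome 4, which was not among the large arms, held 1 gap of at least 100 kb between its 42 joined regions. It measured 117 kb and took up 8.65% of the chromosome. A single depleted entry met a long gap. The series-wide list names 2R from 10532358 to 10534112 as depleted, with a score of -0.00182. Its upper end overlaps the start of the gap from 10534069 to 10637671. It also covers the whole flanking region from 10532367 to 10534068, which both replicates called enriched. That region scored 0.0447 in replicate 1 and 0.105 in replicate 2, at the 0.00990 and 0.0759 percentile.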
